A study of Mus musculus with 7 samples.

Results

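The 9 homeostatic microglia genes P2ry12, P2ry13, Gpr34, Cx3cr1, Csf1r, Siglech, Tmem119, Olfml3 and Sall1 were read in endpoint tumors of a mouse glioma model. They were taken by gene symbol from the 19257 genes of the normalized count table, and all 9 were present. All 9 were also among the 14782 genes whose mean over the libraries reached 10 normalized counts. In mice of CD-1 and C57BL/6 backgrounds, progenitor cells along the lateral ventricles were electroporated in utero with a construct that carried Cas9 and guides against tumor suppressor genes, including Trp53 and Nf1. A piggyBac transposon labelled the electroporated cells with GFP. These 3xCR tumors (3 libraries, replicates 2, 3 and 4, labelled as the control) were compared with GPC6 tumors (4 libraries, replicates 1 to 4), in which piggyBac also drove GPC6, a member of the glypican family of proteoglycans. Both groups therefore carried the same targeted genes, and no library came from brain without a tumor. Each library came from the tissue of 1 brain, which was collected under fluorescence at the endpoint, and the age at collection is not given in the sources used here. The edits and the transgene were placed in progenitors of the ventricle wall, and the labels call the cells neural. Csf1r and Aif1, which brain macrophages express, were detected in all 7 libraries, as were markers of neurons, astrocytes and oligodendrocytes.

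Microglia are the resident macrophages of the brain. In the healthy brain they carry a set of receptors with which they sense nucleotides, chemokines and growth factors, and a transcriptional program that sets them apart from other macrophages. Genes of this homeostatic set such as P2ry12 and Tmem119 are known to be expressed at lower levels when microglia become activated, whereas Csf1r and Cx3cr1 are also carried by monocytes and macrophages of the blood. A bulk library mixes RNA from every cell type present, so that fewer microglia and less RNA of a gene per microglial cell cannot be told apart in these values.

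The libraries held 7197692 to 18879762 reads on genes, with GPC6 replicate 1 the shallowest. Gpc6 stood at 126 to 226 normalized counts among 3xCR libraries and at 675, 263, 3434 and 5084 among those labelled GPC6 (replicates 1 to 4), so the library labelled GPC6 replicate 2 lay close to the 3xCR level. GPC6 replicate 1 stood apart in cell content, as its 10 neuronal genes summed to 64333 normalized counts against 4854 to 37259 in the other 6 libraries, and its 12 genes of all microglia and macrophages summed to 21673 against 36614 to 94001.

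8 of the 9 genes had a lower mean log2 level in GPC6 than in 3xCR tumors, against 51.7% of all genes tested. Fold changes here are differences of the mean log2(normalized count + 1), GPC6 minus 3xCR, from limma, and their median over the 9 genes was -0.41, beside -0.019 over all genes tested. 3 of the 9, Tmem119, P2ry13 and Olfml3, were lower at an unadjusted p under 0.05, a level that 1.92% of all genes passed in that direction. None passed the Benjamini-Hochberg adjustment of limma over all 14782 genes at 0.05, as was so for all genes tested (0%). In Tmem119 and P2ry13 every GPC6 library lay below every 3xCR library, a separation in that direction seen in 3.52% of all genes, and 0 of the 9 had the opposite separation, which 2.80% of all genes had. edgeR and DESeq2 on the reads recovered from the values also put these 3 genes below an unadjusted p of 0.05, as they did for 2.95% of all genes in the same direction, and neither tool passed any of the 9 after adjustment. The 3 genes became 1 without 3xCR replicate 3, without 3xCR replicate 4 or without GPC6 replicate 2, and 2 without GPC6 replicate 1 or 4, with Tmem119 among them each time. Of all 14782 genes, 689 were at that level in either direction with all libraries. That number was 377, 121 and 1399 without 3xCR replicate 3, 3xCR replicate 4 or GPC6 replicate 2, and 468 and 1159 without GPC6 replicate 1 or 4. With the mean log2 level of neuronal genes as a covariate the count was again 3 but the genes differed, while 253 of all genes were at that level in either direction. P2ry13 (log2 fold change -0.54, limma unadjusted p = 0.0927, adjusted p = 1.0) and Olfml3 (-1.24, unadjusted p = 0.211) were then above that level, and Tmem119 (-1.02), P2ry12 (-0.66) and Siglech (-2.35) below it.

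**Figure D1:**
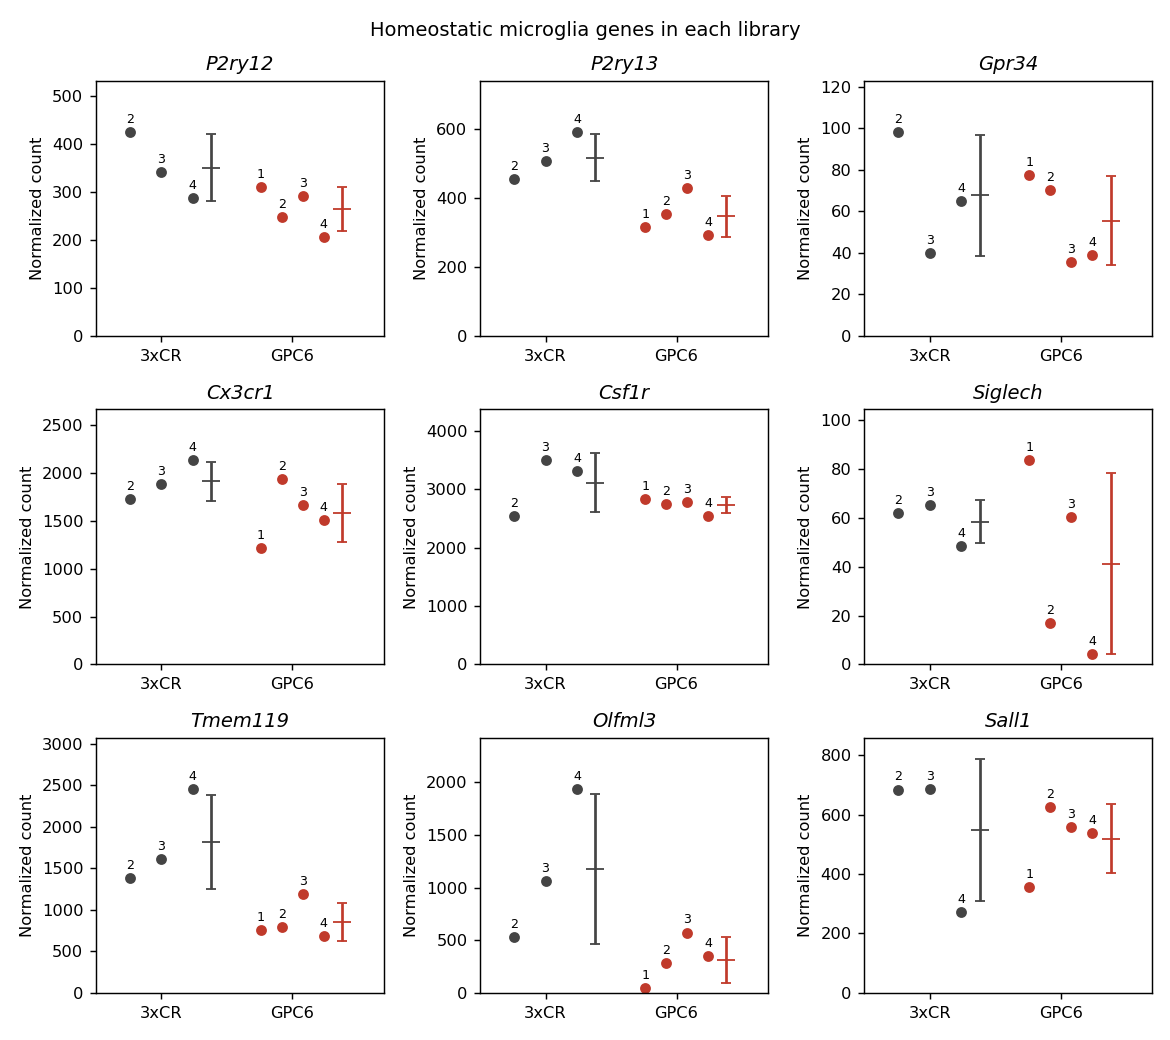
Normalized count (linear axis from 0) of each of the 9 genes in each library, 1 point per library with its replicate number, 3xCR in grey and GPC6 in red, with the group mean and SD beside the points. Tmem119 and P2ry13 show no overlap between the groups, Csf1r spans the narrowest range and Olfml3 and Siglech the widest.

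P2ry12 and P2ry13 are receptors for adenosine diphosphate, through which microglia move their processes towards damaged cells. Both lie on chromosome 3 of GRCm38, P2ry13 from 59207892 to 59210882 and P2ry12 from 59216272 to 59262871, on the same strand and both within Med12l, which runs on the opposite strand. The library kit was stranded, and the strand setting of the counting is not given in the sources used here. P2ry12 shares 9 exonic bases with Med12l and P2ry13 shares 0, and Med12l itself had 67.7 to 134 normalized counts in 3xCR and 169 to 238 in GPC6 tumors. The windows before their transcription starts are shown because the genes are neighbors of which only 1 was apart between the groups. The letters GGAAGT or GAGGAA on either strand are in capitals. Both hold GGAA, the core of sites for ETS factors such as PU.1 (encoded by Spi1), and GGAA elsewhere in the windows is not marked. RefSeq gives the windows for GRCm38.p6, from 250 bases before to 50 bases after the start, in the direction of the gene:
P2ry12 (chr3:59262936-59263235, minus strand): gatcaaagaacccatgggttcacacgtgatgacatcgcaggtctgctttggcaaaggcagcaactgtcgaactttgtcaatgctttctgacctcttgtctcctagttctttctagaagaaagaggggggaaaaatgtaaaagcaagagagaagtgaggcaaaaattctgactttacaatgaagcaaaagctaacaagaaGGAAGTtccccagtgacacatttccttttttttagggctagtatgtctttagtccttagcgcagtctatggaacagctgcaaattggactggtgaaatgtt
P2ry13 (chr3:59210833-59211132, minus strand): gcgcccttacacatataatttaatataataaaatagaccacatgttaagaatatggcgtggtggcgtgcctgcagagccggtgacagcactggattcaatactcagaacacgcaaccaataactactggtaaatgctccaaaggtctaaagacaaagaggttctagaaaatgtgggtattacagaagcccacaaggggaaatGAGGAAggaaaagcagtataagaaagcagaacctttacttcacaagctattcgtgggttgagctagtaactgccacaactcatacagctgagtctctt

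The match begins 51 bases before the start in P2ry12 and 48 bases before it in P2ry13. Matches of GGAAGT are found in 23.8% and of GAGGAA in 28.3% of the 32851 windows of the table, and either in 43.4%, so a match by itself is common. RefSeq windows were at hand for 6 of the 9 genes, 8 windows in all, of which 4 held a match.

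P2ry13 had normalized counts of 454, 507 and 591 in the 3xCR libraries (replicates 2 to 4) against 315, 355, 428 and 292 in the GPC6 libraries (replicates 1 to 4). The groups did not overlap, with GPC6 replicate 3 the closest to the 3xCR libraries. GPC6 tumors averaged 347 ± 59.3 (SD, n = 4), compared with 517 ± 69.2 (SD, n = 3) for 3xCR, a difference of -32.8%, and the log2 fold change was -0.58 (standard error, SE, 0.22, limma unadjusted p = 0.031, adjusted p = 0.730). P2ry12, the neighbor, had 425, 341 and 287 in the 3xCR libraries (replicates 2 to 4) against 311, 249, 293 and 207 in the GPC6 libraries (replicates 1 to 4). Its groups overlapped, since 3xCR replicate 4 lay below GPC6 replicates 1 and 3. The log2 fold change of P2ry12 was -0.41 (SE 0.25, limma unadjusted p = 0.142, adjusted p = 0.730). The 2 receptors were thus highest in different 3xCR libraries, P2ry12 in replicate 2 and P2ry13 in replicate 4, and the ratio of P2ry13 to P2ry12 was 1.07 and 2.06 in these libraries and 1.01 to 1.46 in GPC6 tumors.

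Gpr34, a receptor for lysophosphatidylserine, was a gene of few reads. It had 98.1, 40.0 and 64.9 normalized counts in the 3xCR libraries (replicates 2 to 4) against 77.3, 70.1, 35.5 and 39.1 in the GPC6 libraries (replicates 1 to 4). GPC6 replicates 3 and 4 lay below all 3xCR libraries and 3xCR replicate 2 above all GPC6 libraries, with the others intermixed, and the log2 fold change of -0.27 (SE 0.46, limma unadjusted p = 0.575) was smaller than its error. Counting error alone was wide here, as the 38 reads of GPC6 replicate 4 allow 27.7 to 53.7 normalized counts (95% exact Poisson interval, which covers counting error only).

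Entpd1, the surface enzyme that breaks down the nucleotides these receptors sense, had 960 ± 360 normalized counts (SD, n = 3) in 3xCR and 587 ± 177 (SD, n = 4) in GPC6 tumors, without overlap of the groups (log2 fold change -0.71, limma adjusted p = 0.730). Nt5e, which converts the adenosine monophosphate that remains to adenosine, had 341 ± 30.5 (SD, n = 3) and 372 ± 142 (SD, n = 4).

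Cx3cr1 is the receptor for fractalkine, a chemokine of neurons encoded by Cx3cl1. Its normalized counts were 1727, 1879 and 2127 in the 3xCR libraries (replicates 2 to 4) against 1210, 1934, 1661 and 1506 in the GPC6 libraries (replicates 1 to 4). GPC6 replicate 2 lay within the 3xCR range and the other 3 GPC6 libraries below it. The log2 fold change of Cx3cr1 was -0.29 (SE 0.22, limma unadjusted p = 0.220, adjusted p = 0.738). It was -0.17 without GPC6 replicate 1, and -0.044 and -0.074 with the neuronal or the myeloid mean as a covariate. The ligand gene Cx3cl1 had 796 to 1163 normalized counts in 3xCR tumors, while GPC6 replicates 1 and 3 had 5911 and 3824 and the remaining GPC6 libraries, replicates 2 and 4, had 1141 and 845. Its 2 high libraries were those with the highest sums of neuronal genes, 64333 and 37259, and the part of neuronal content in the level of Cx3cl1 was not tested.

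Csf1r, the receptor on which the survival of microglia depends, was the most even of the 9 genes. It had 2539, 3491 and 3308 normalized counts in the 3xCR libraries (replicates 2 to 4) against 2838, 2744, 2787 and 2536 in the GPC6 libraries (replicates 1 to 4), a span of 1.38-fold over all 7 libraries. The GPC6 libraries lay close together at 2726 ± 132 (SD, n = 4), and 3 of the 4 lay within the 3xCR range, with replicate 4 just below the lowest 3xCR library. The log2 fold change of Csf1r was -0.18 (SE 0.20, limma unadjusted p = 0.392, adjusted p = 0.802). Of all genes tested, 4.75% had a smaller SD of the log2 level over the 7 libraries. Csf1r shares 873 of its 5774 exonic bases with Hmgxb3 on the opposite strand, which had 405 to 568 normalized counts in 3xCR and 441 to 662 in GPC6 tumors. The genes of its ligands had 1232 ± 144 (SD, n = 3) in 3xCR and 1055 ± 341 (SD, n = 4) in GPC6 tumors for Csf1, and 329 ± 199 (SD, n = 3) and 273 ± 181 (SD, n = 4) for Il34, both with overlap of the groups.

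Siglech, a member of the siglec family of lectins that signals through the adaptor encoded by Tyrobp, was even in 3xCR and uneven in GPC6 tumors. It had 61.9, 65.1 and 48.3 normalized counts in the 3xCR libraries (replicates 2 to 4) against 83.5, 16.8, 60.3 and 4.12 in the GPC6 libraries (replicates 1 to 4). GPC6 replicates 2 and 4 lay below all other libraries, while GPC6 replicate 1 was the highest of the 7. The value of GPC6 replicate 4 rested on 4 reads, which allow 1.12 to 10.5 normalized counts (95% exact Poisson interval), and that of replicate 2 on 17 reads, which allow 9.78 to 26.9, so both were below the 33.7 that the 35 reads of 3xCR replicate 4 allow at the least. The log2 fold change of Siglech was -1.17 (SE 0.94, limma unadjusted p = 0.248, adjusted p = 0.745), and it was -0.39 without GPC6 replicate 4. edgeR and DESeq2, which weigh the reads on a linear scale, gave -0.52 and -0.51. Tyrobp had 2704 ± 977 normalized counts (SD, n = 3) in 3xCR and 1154 ± 519 (SD, n = 4) in GPC6 tumors without overlap of the groups (log2 fold change -1.30, limma adjusted p = 0.730), and all macrophages carry this adaptor.

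Tmem119, a membrane protein used to tell microglia from other macrophages, showed the smallest p of the 9 genes. Its normalized counts were 1378, 1607 and 2456 in the 3xCR libraries (replicates 2 to 4) against 753, 792, 1186 and 683 in the GPC6 libraries (replicates 1 to 4). Every GPC6 library lay below every 3xCR library, with GPC6 replicate 3 the closest. GPC6 tumors averaged 854 ± 226 (SD, n = 4), compared with 1814 ± 568 (SD, n = 3) for 3xCR, a difference of -52.9%. The log2 fold change was -1.08 (SE 0.28, limma unadjusted p = 0.00553, adjusted p = 0.730). The exact permutation p of Tmem119, two-sided over 7 libraries, was 0.057, the smallest that 3 against 4 libraries allow. Leaving out single libraries, the log2 fold change of Tmem119 lay between -1.25 and -0.84.

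Olfml3, a secreted glycoprotein of the olfactomedin family, had the largest difference and the widest spread. Its normalized counts were 533, 1061 and 1938 in the 3xCR libraries (replicates 2 to 4) against 43.3, 285, 574 and 350 in the GPC6 libraries (replicates 1 to 4), a span of 44.8-fold. The groups overlapped in a single pair, as GPC6 replicate 3 exceeded 3xCR replicate 2. GPC6 tumors averaged 313 ± 218 (SD, n = 4), compared with 1177 ± 710 (SD, n = 3) for 3xCR, a difference of -73.4%, and the log2 fold change was -2.20 (SE 0.86, limma unadjusted p = 0.0346, adjusted p = 0.730). Without GPC6 replicate 1 the log2 fold change of Olfml3 was -1.42. Olfml3 lies on chromosome 3 from 103722222 to 103738001, and its window before the start is shown because no other member differed as much. It held neither of the 2 letter runs searched, although it does hold the shorter core GGAA, which was not searched by itself:
Olfml3 (chr3:103737952-103738251, minus strand): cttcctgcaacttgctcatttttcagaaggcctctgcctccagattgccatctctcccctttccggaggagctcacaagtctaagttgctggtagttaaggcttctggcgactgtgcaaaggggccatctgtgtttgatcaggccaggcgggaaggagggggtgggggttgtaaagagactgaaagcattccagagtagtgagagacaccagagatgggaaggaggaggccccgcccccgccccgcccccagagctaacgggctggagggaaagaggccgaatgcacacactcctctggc

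Sall1 is a zinc finger transcription factor that maintains the identity of microglia. It had 685, 686 and 273 normalized counts in the 3xCR libraries (replicates 2 to 4) against 357, 625, 558 and 538 in the GPC6 libraries (replicates 1 to 4). 3xCR replicate 4 was the lowest of the 7 libraries, although it was the highest for P2ry13, Cx3cr1, Tmem119 and Olfml3. That library also had the highest sum of the 12 genes of all microglia and macrophages (94001). Which cells of the tissue carried Sall1 was not tested. The log2 fold change of Sall1 was 0.012 (SE 0.38, limma unadjusted p = 0.976), and its sign turned with the processing, so no direction is given. Without 3xCR replicate 4 it was -0.43.

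**Figure D2:**
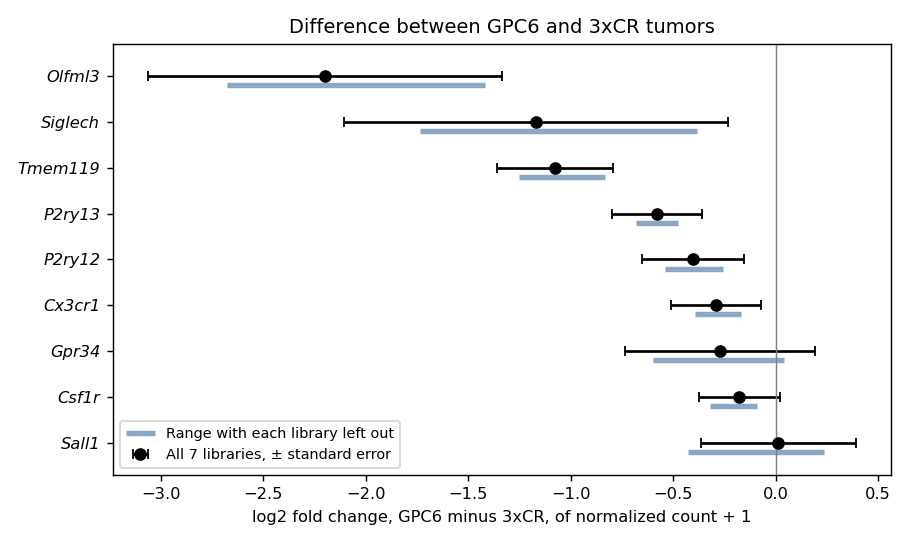
Log2 fold change of each gene, GPC6 minus 3xCR, on the log2(normalized count + 1) scale, with points for all 7 libraries, bars for the standard error and blue lines for the range with each library left out in turn. Only the ranges of Gpr34 and Sall1 cross 0. The range is -1.25 to -0.84 for Tmem119, -0.68 to -0.48 for P2ry13 and -0.32 to -0.090 for Csf1r.

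Levels were compared between genes per kb of exon, with the union of all annotated exons as the length. The transcripts expressed can be shorter than that union, so the order can depend on the annotation. In 3xCR tumors Tmem119 was the highest with 783 ± 245 normalized counts per kb (SD, n = 3), followed by Csf1r (539 ± 87.5), Cx3cr1 (424 ± 44.9), P2ry13 (205 ± 27.4), Olfml3 (191 ± 115), P2ry12 (138 ± 27.3), Sall1 (104 ± 45.2), Gpr34 (32.4 ± 14.0) and Siglech (17.3 ± 2.63). The ranges of neighbors in this order overlapped except between Cx3cr1 and P2ry13 and between Sall1 and Gpr34. In GPC6 tumors Csf1r came first with 472 ± 22.9 per kb (SD, n = 4), above Tmem119 (369 ± 97.7) in 3 of 4 libraries and with overlapping ranges, while Csf1r was below Tmem119 in 3 of 3 libraries of 3xCR tumors. Olfml3 stood at 50.8 ± 35.4 per kb (SD, n = 4) there and below Sall1 in 4 of 4 libraries.

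**Figure D3:**
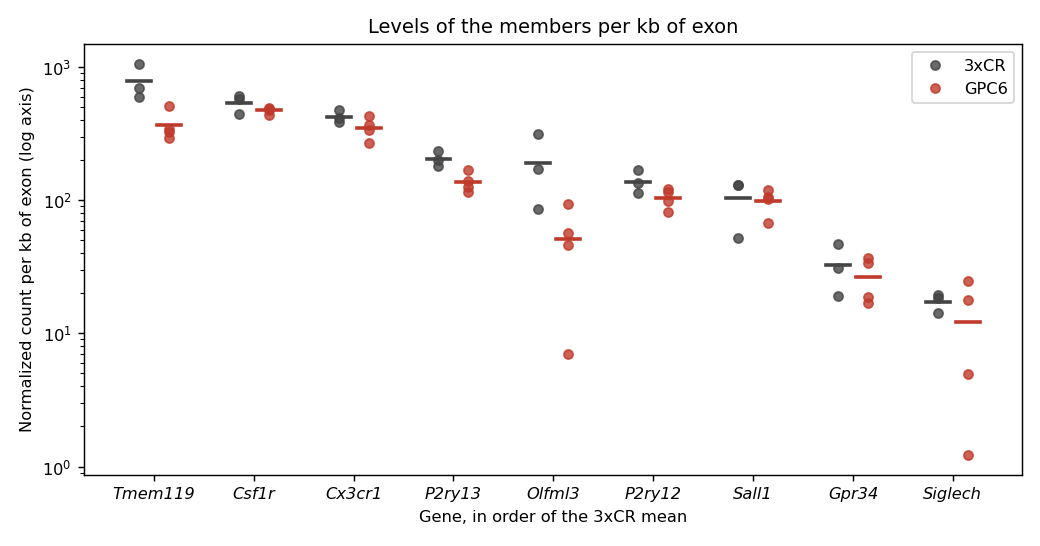
Normalized count per kb of exon (log axis) of each gene in each library, ordered by the 3xCR mean, with 3xCR in grey, GPC6 in red and bars for the group means. Tmem119 is above Csf1r in the 3xCR libraries and Olfml3 reaches down to 7.02 per kb in GPC6 replicate 1.

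The members were set beside the other genes of the myeloid cells in the same libraries. All 12 genes of the list carried by microglia and macrophages alike had a lower mean log2 level in GPC6 tumors, with a median log2 fold change of -0.83, and 3 of them were lower at an unadjusted p under 0.05 (limma) beside the 1.92% of all genes. Aif1, which encodes the stained marker Iba1, had 1457 ± 518 normalized counts (SD, n = 3) in 3xCR and 637 ± 287 (SD, n = 4) in GPC6 tumors without overlap of the groups, and 218 in GPC6 replicate 1. C1qa and C1qc, which encode chains of the complement protein C1q, were the others of the 3 at that level, with log2 fold changes of -1.07 and -0.87. The mean log2 level of the 12 genes was 10.6 ± 0.69 (SD, n = 4) in GPC6 tumors, compared with 11.4 ± 0.54 (SD, n = 3) in 3xCR tumors (two-sided exact permutation test, p = 0.114).

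The log2 level of each member minus this mean describes its level relative to myeloid RNA. Relative to it, 6 of the 9 genes had a higher mean in GPC6 tumors, with Sall1 at 0.83, Csf1r at 0.64, Gpr34 at 0.55, Cx3cr1 at 0.53, P2ry12 at 0.41 and P2ry13 at 0.24 above 3xCR on the log2 scale. The differences were -0.26 for Tmem119, -0.35 for Siglech and -1.38 for Olfml3. None of these 9 differences passed 0.05 (two-sided exact permutation tests, unadjusted p of 0.114 for Olfml3 to 0.857 for Siglech). Aif1 had the lowest log2 fold change of the 12 genes (-1.31), so every member reads higher against it than against their mean. With Aif1 alone as the reference, the differences were 1.02 for Cx3cr1 and 1.13 for Csf1r (two-sided exact permutation tests, unadjusted p = 0.057 for each, the smallest possible). The difference of Tmem119 was 0.24 on that reference, so its sign relative to myeloid RNA depended on the reference, as did that of Siglech (0.14). Single libraries also decided signs of the differences from the mean of the 12 genes. P2ry12 was at -0.0088 without 3xCR replicate 4 and P2ry13 at -0.041 without GPC6 replicate 1, while Siglech was at 0.66 and Tmem119 at 0.067 without GPC6 replicate 4. Without GPC6 replicate 1 the values were 0.042 for Gpr34, 0.0091 for P2ry12 and 0.30 for Csf1r, and without 3xCR replicate 4 that of Sall1 was 0.10. In the fit of all genes with the mean of the 12 genes as a covariate, all 9 members were lower in GPC6 tumors. The sign thus turned for the 6 genes given above as higher. Their log2 fold changes were -0.72 for P2ry12, -0.50 for P2ry13, -0.70 for Gpr34, -0.074 for Cx3cr1, -0.15 for Csf1r and -0.047 for Sall1. P2ry12, Siglech (-2.55) and Tmem119 (-0.90) were at an unadjusted p under 0.05 (limma, adjusted p = 0.989 for each). In that fit 478 of all 14782 genes were at that level, in either direction. Olfml3 had -0.63 and was no longer at that level.

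**Figure D4:**
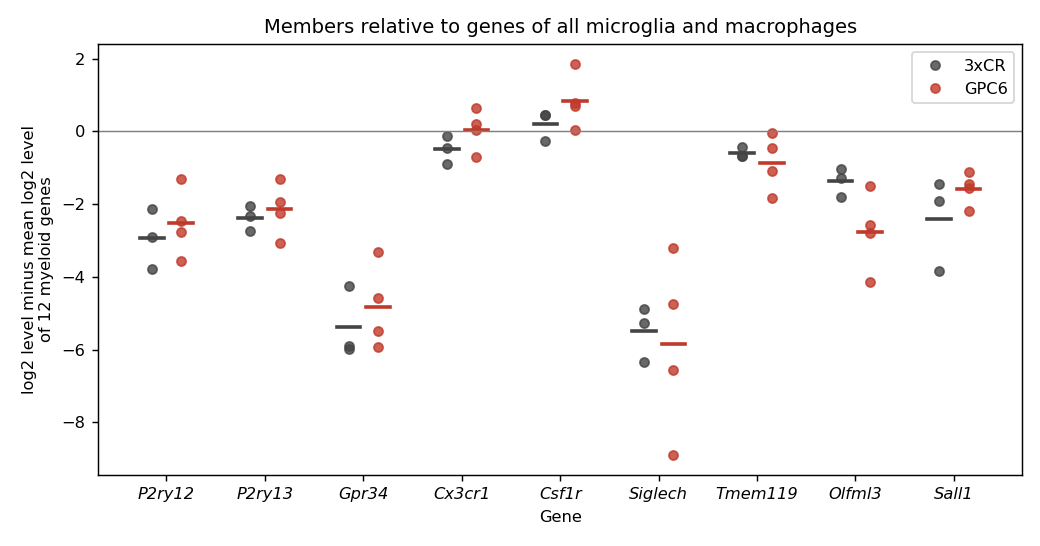
Log2 level of each gene minus the mean log2 level of 12 genes of all microglia and macrophages in the same library, 3xCR in grey, GPC6 in red, bars for the group means. The groups overlap in every gene, the GPC6 mean is lower in Tmem119, Siglech and Olfml3, and Siglech spreads from -8.91 to -3.21 in GPC6 tumors.

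The members did not follow a single pattern across the libraries. Over the 7 libraries the highest level was 9.37 times the lowest for Aif1 and between 2.93 and 9.64 times for the 12 myeloid genes, but 1.38, 1.76, 2.02 and 2.06 times for Csf1r, Cx3cr1, P2ry13 and P2ry12. It was 2.51 times for Sall1, 2.77 for Gpr34 and 3.59 for Tmem119, and beyond the myeloid genes at 20.3 for Siglech and 44.8 for Olfml3. 3xCR replicate 4, which had the highest sum of genes of blood-derived monocytes and macrophages (44012 normalized counts, against 1878 to 17741 in the others), was highest for 4 members and lowest for Sall1, and its P2ry12 level was the lowest of the 3xCR libraries. GPC6 replicate 4 was the lowest of the 7 libraries in 5 of the 9 members, among them P2ry12, Tmem119 and Siglech, while its sum of the 12 myeloid genes (49903) was the highest of the GPC6 group. GPC6 replicate 1 was the lowest in Cx3cr1 and Olfml3 and the highest in Siglech. The 10 genes outside the list whose log2 levels over the 7 libraries were most like the mean of the members (Pearson r of 0.94 to 0.99) were Maff, Mbd3, Med6, Brk1, Hist1h2bk, Glycam1, Sema3b, Mmp2, Hist1h2bn and Mtfr1l. Of the members, P2ry13 (0.97) and Tmem119 (0.93) were nearest to their own mean and Sall1 (0.012) and Gpr34 (0.14) the farthest. With 7 libraries and 14782 genes, such values are a description of these libraries.

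**Figure D5:**
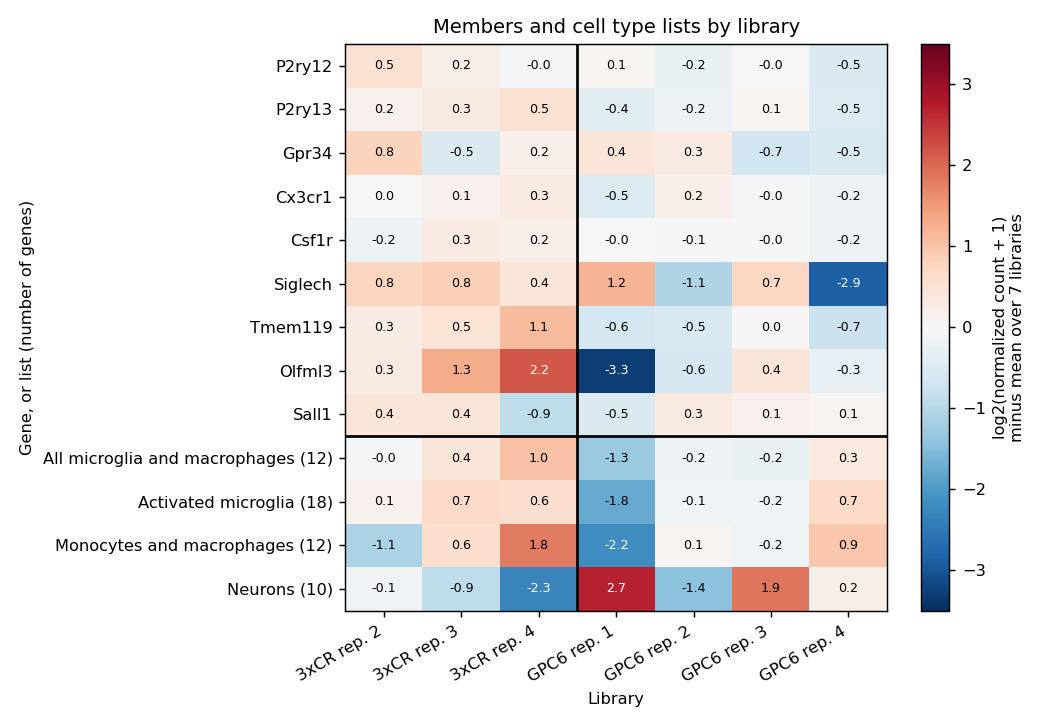
Log2(normalized count + 1) of each member minus its mean over the 7 libraries, and the same averaged over 4 lists of cell type genes, by library. The myeloid and monocyte rows are lowest in GPC6 replicate 1, whose neuronal row is highest, and the members above the black line are less even in Olfml3 and Siglech than in Csf1r.

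Factors known to establish or maintain microglia were examined as well. Of 17 genes listed as ligands, adaptors and regulators of the members, 13 had a lower mean log2 level in GPC6 tumors (median log2 fold change -0.47). Of these, 2 were at an unadjusted p under 0.05 (limma), Tyrobp and Runx1, beside 1.92% of all genes in that direction, and 0 were higher at that level. Spi1 and Irf8, transcription factors of all macrophages, had 336 ± 143 and 1391 ± 810 normalized counts (SD, n = 4) in GPC6 and 615 ± 263 and 2239 ± 643 (SD, n = 3) in 3xCR tumors, and the groups overlapped in both. Tgfb1, a ligand on which the microglial program depends, had 257 ± 98.6 and 403 ± 172, and its receptor genes Tgfbr1 and Tgfbr2 had log2 fold changes of -0.47 and -0.75 (limma adjusted p = 0.730 for each of the 3). Mef2c, which neurons also express, had 2400 and 1168 normalized counts in GPC6 replicates 1 and 3 and 239 to 596 in the other 5 libraries, and GPC6 replicates 1 and 3 were also those in which neuronal genes were highest.

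Further genes of homeostatic microglia were read from a second list. Of 18 such genes outside the 9, 15 had a lower mean log2 level in GPC6 tumors (median log2 fold change -0.62), and 5 of these were lower at an unadjusted p under 0.05 (limma), with 0 at an adjusted p under 0.05. Of all genes tested, 1.92% were lower at that unadjusted level. Fcrls, a receptor of microglia, ran from 0 in GPC6 replicate 1 (where a count of 0 allows up to 4.64) to 350 in GPC6 replicate 2, with 55.8 to 233 in 3xCR tumors. Selplg, the selectin ligand PSGL-1, had 468 ± 69.6 normalized counts (SD, n = 4) in GPC6 tumors, compared with 898 ± 339 (SD, n = 3) in 3xCR tumors, without overlap of the groups. Among 18 genes of activated, lipid-associated microglia, 15 had a lower mean log2 level in GPC6 tumors (median -0.85). At an unadjusted p under 0.05 (limma) 2 of them were lower, beside the same 1.92% of all genes.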

How the data were processed

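RNA of 7 endpoint tumors, 3 of the 3xCR and 4 of the GPC6 group as the sample titles give them, was sequenced by the authors from poly(A)-selected libraries. The authors aligned reads to mm10 with STAR 2.5.0a, counted them on genes with Rsamtools and GenomicFeatures and divided the counts by DESeq2 (1.20.0) size factors, so the deposited values are a linear, size-factor normalized signal for each gene, uncorrected for length. All 7 columns of values were used. 25 entries whose names had turned into dates (0.254% to 0.361% of the reads) were left out. 100% of values were whole multiples of 1 read within 0.01, which gave back the reads.

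The members and lists were chosen with earlier results of these data known. Groups were compared across all genes on the log2(normalized count + 1) scale by limma 3.58.1 (R 4.3.3), with a trended variance and a minimum mean of 10, two-sided, and Benjamini-Hochberg adjustment at 0.05. Other settings tried were a pseudocount of 0.5 or 5, a minimum mean of 50 or none, equal totals or equal upper quartiles, edgeR 4.0.16 (quasi-likelihood) and DESeq2 1.42.0 (Wald) on the recovered reads, library weights, the myeloid or neuronal mean as a covariate, a replicate block and leaving out each library. The fits were tested on simulated data, in which unchanged genes made up a larger share of the calls of DESeq2, at an adjusted p under 0.05, than of those of limma and edgeR. The simulation gave every gene the same dispersion and no differences in cell content, so these shares need not hold for the libraries here. Single values were compared by two-sided exact permutation tests over 35 splits, with 0.057 the smallest p. Nothing says whether litters were shared, so p-values measure the spread between these brains. A count of 0 allows 1.64 to 4.64 normalized counts, depending on the library, counting error only.

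All 9 members were named, from the other lists the first 3 genes, the most abundant and those of largest and smallest difference, all ligands and regulators, and the 10 genes most like the mean of the members. Selplg, C1qa, C1qc, Lck and Flt1 were named after their values were seen, and so were the letter runs searched, after the sequences. A gene that this rule would name is not reported here. Genes were placed with GENCODE M21 (GRCm38, also called mm10), which matched 96.0% of symbols, and lengths are the union of exons.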

Additional observations from a re-analysis of the deposited data

Results flagged for a closer look

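Among the 4 GPC6 libraries, 26 genes (the 9 members and the 17 ligands, adaptors and regulators) were examined for a library far from the other 3, by the gap to the nearest library over the whole range of log2 levels, judged by Dixon's 95% critical value. 2 met it, where chance gives about 1.30. Tgfb1 had 111 normalized counts in GPC6 replicate 1, while the remaining GPC6 libraries had 286 to 320, and Runx1 had 34.0 there, against 72.0 to 82.0. None of the 9 members met it. The 3xCR group holds 3 libraries and was not examined.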

How the results depend on the processing

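The median log2 fold change of the 9 members stayed below 0 in all 19 alternatives, from -0.63 with the myeloid mean as a covariate to -0.29 (-0.59 to -0.29 with each library left out), and 7 to 9 members had a lower level. The count of members at an unadjusted p under 0.05 was 2 to 4 in the other alternatives and 1 to 3 with a library left out. The count of 4 came with library weights, where 5105 of all 14782 genes were at that level. Members whose groups did not overlap numbered 2 to 4 with a library left out, a count that cannot fall below 2 when libraries are removed. Separation comes more easily with fewer libraries, and the share of all genes was not counted there, so the rise is not read as a result. No member passed adjustment in any alternative; the nearest was Tmem119 with library weights (limma adjusted p = 0.058). Those weights brought the log2 fold changes to -0.59 for Tmem119, -0.33 for P2ry13 and -1.18 for Olfml3. Over all genes, 0 passed adjustment except with DESeq2 (4) and with library weights (1962). The 689 genes at an unadjusted p under 0.05 became 1853 with DESeq2, 991 with edgeR, 5105 with library weights, 253 with the neuronal mean as a covariate and 121 to 1399 with a library left out. Sall1 changed sign with DESeq2 (-0.069), edgeR (-0.092), library weights (-0.26), an equal upper quartile (-0.041), the myeloid covariate (-0.047), and without 3xCR replicate 4 (-0.43, the highest without a library being 0.23) or GPC6 replicates 2, 3 or 4 (-0.087, -0.033 and -0.015), and Gpr34 without 3xCR replicate 2 (0.039, the lowest being -0.60). The cause was not tested. Nothing says that the replicate numbers pair the samples. Deviations of same-numbered libraries correlated with r of -0.19, 0.12 and 0.30 over genes. Those of other-numbered libraries ran from -0.46 to 0.50, so these values cannot exclude a pairing. With the replicate block 678 genes and 2 members (Tmem119 and Olfml3) were below an unadjusted p of 0.05 in limma and 0 passed adjustment. Depth limits Gpr34 and Siglech, whose libraries held as few as 38 and 4 reads.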

Other observations

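Lists of other cell types were read in the same libraries. Of 12 genes of blood-derived monocytes and macrophages, 10 had a lower mean log2 level in GPC6 tumors (median log2 fold change -0.97). At an unadjusted p under 0.05, limma and edgeR had 0 of the 12 and DESeq2 had Ly6c2 alone (log2 fold change -1.89, adjusted p = 0.418). Lyz2, a lysozyme of myeloid cells, ranged from 388 normalized counts in GPC6 replicate 1 to 29595 in 3xCR replicate 4. The 8 tested genes of 10 of border macrophages had a median of -0.13. Mrc1, the mannose receptor, had 249 in GPC6 replicate 2 and 203 in 3xCR replicate 4, against 19.5 to 53.5 elsewhere.

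The 10 neuronal genes all had a higher mean log2 level in GPC6 tumors (median log2 fold change 2.48), 3 of them at an unadjusted p under 0.05 in limma, with none passing adjustment. Over all 14782 genes tested, 405 were higher and 284 lower at that unadjusted level. Snap25, a protein of the synaptic vesicle machinery, had 126 to 1440 normalized counts in 3xCR tumors, and 20138 in GPC6 replicate 1 against 708 in GPC6 replicate 2, so the groups overlapped. All 7 tested T cell genes had a lower mean (median -1.31), of which Lck, a kinase of T cell receptor signaling, was at an unadjusted p under 0.05 in limma (log2 fold change -1.42, adjusted p = 0.730). T cell genes summed to 1838 normalized counts in 3xCR replicate 4 and to 334 to 506 in the other libraries. The medians were -0.54 for 8 genes of dividing cells, -0.67 for 8 of oligodendrocytes, 0.0032 for 6 of their precursors, 0.18 for 8 of astrocytes and 0.42 for 7 of endothelial cells, among which Flt1 alone, a receptor for vascular growth factors, was at an unadjusted p under 0.05 in limma (log2 fold change 0.92).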
